A study of Mus musculus with 12 samples.

Results

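The genes described here are the mouse splicing factor and small nuclear ribonucleoprotein (snRNP) genes: the serine/arginine-rich (SR) genes Srsf, the heterogeneous nuclear ribonucleoprotein genes Hnrnp, the snRNP protein genes Snrp, and the SF3a and SF3b genes. They were chosen by their symbols, with earlier results of these data known. Of the 24046 genes in the count files, 52 have such a symbol: 11 SR, 20 hnRNP, 12 snRNP and 9 SF3 genes. The cells were follicular (FO) B cells sorted from mouse spleen, in 4 groups of 3 libraries: Jmjd1c knockout (KO) cells 2 h after anti-IgM, wild-type (WT) cells 2 h after anti-IgM, KO cells at 0 h of anti-IgM, and WT cells at 0 h. Anti-IgM crosslinks the B cell receptor, and Jmjd1c encodes a Jumonji-domain protein. Each of the 6 animals gave a library at both times, and the labels place 1 KO and 1 WT animal in each of 3 batches, which carry the replicate number. The kind of allele, any Cre driver, and the strain, age and sex of the mice were not given in the sources used here.

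Splicing removes introns from pre-mRNA. The U1 and U2 snRNPs recognise the start of the intron and its branch site. Each snRNP is built of a small nuclear RNA, a ring of Sm proteins and a few proteins of its own, and the SF3a and SF3b complexes help the U2 snRNP to hold the branch site. SR proteins mostly promote and hnRNP proteins often repress the use of nearby splice sites. In lymphocytes such proteins set, among others, which exons of the Ptprc (CD45) mRNA are kept. Many SR and hnRNP genes also limit their own mRNA by splicing it into forms that are degraded by nonsense-mediated decay. The deposited counts are per gene, so such forms are counted with the coding mRNA.

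Total counts ran between 5666013 and 14153396 per library. The row of the 45S ribosomal RNA precursor, Rn45s, took 52.3% of the counts of KO 2 h replicate 1 and 24.8% of those of WT 2 h replicate 1. It took 12.9% to 15.5% in the 4 libraries of batch 2 and 0.418% to 1.09% in the other 6 libraries. KO 2 h replicate 1 also stood apart in markers of dividing cells, whose 8 genes summed to 930 CPM there and to 33.1 to 251 CPM in the other 11 libraries. Jmjd1c itself had 208, 213 and 199 CPM in KO cells at 2 h against 322, 295 and 270 CPM in WT cells at 2 h. At 0 h it had 231, 236 and 197 CPM in KO cells against 360, 326 and 289 CPM in WT cells. The genotypes did not overlap at either time, with log2 differences of -0.52 ± 0.13 at 2 h (SE; edgeR, adjusted p = 0.887) and -0.56 ± 0.13 at 0 h (edgeR, adjusted p = 0.9999). Which part of the gene was deleted was not stated, so the remaining counts do not check the deletion itself. Some markers moved with time. B cell markers (7 genes) summed to 2520 to 4050 CPM at 2 h, against 4300 to 5540 CPM at 0 h. Those of marginal zone and B1 B cells (6 genes) summed to 177 to 277 CPM at 2 h, against 68.8 to 101 CPM at 0 h, and those of T cells (7 genes) to 120 to 198 CPM at 2 h, against 68.6 to 123 CPM at 0 h. The T cell sums overlapped between times and the other 2 did not. Among the marginal zone and B1 markers, S1pr3 had 79.2 to 193 CPM at 2 h, against 5.49 to 12.6 CPM at 0 h. Cd5 was also higher in all 2 h libraries, and Cd9, Zbtb20 and Spn overlapped between times. Cd1d1 was lower, with 5.44 to 8.95 CPM at 2 h, against 9.05 to 17.5 CPM at 0 h. Lck had 90.7 to 159 CPM at 2 h, against 37.9 to 61.3 CPM at 0 h, and the other T cell markers overlapped. Follicular markers (4 of 5 genes found) summed to 748 CPM in KO 2 h replicate 1 and to 1420 to 1790 CPM elsewhere, and germinal centre markers (5 genes) to 95.5 CPM in that library and 9.29 to 30.8 CPM elsewhere. Markers of myeloid cells (7 of 8 genes found) summed to 26.5 to 120 CPM and those of plasma cells (3 of 4 genes found) to 49.8 to 104 CPM. Erythroid markers (7 genes) summed to 1.26 to 38.9 CPM and NK cell markers (5 genes) to 5.59 to 16.3 CPM, and no marker found was at 0 in all libraries. In such bulk samples, fewer cells of a type and less RNA per cell cannot be told apart. CPM here are the deposited counts scaled to the library total and its TMM factor. A level per kb is CPM divided by the length of the gene's principal transcript in GENCODE M21 (mouse build GRCm38).

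Splicing factor mRNAs were abundant at 0 h. The 52 genes together gave 12283, 11424 and 11152 CPM in KO cells at 0 h, against 12035, 11444 and 10962 CPM in WT cells at 0 h. The hnRNP genes supplied more than all the others together, at 6118 to 6650 CPM in KO cells and 5959 to 6565 CPM in WT cells, while the snRNP genes supplied 412 to 462 CPM in KO cells and 410 to 434 CPM in WT cells. The levels of KO and WT libraries overlapped in each of the 4 groups of genes at 0 h. Per kb of transcript, Hnrnpa2b1, an RNA-binding protein that also sorts RNA in the cytoplasm, had the highest mean level at 0 h, 415 CPM per kb in KO cells and 405 CPM per kb in WT cells. It was followed by Hnrnph1 with 269 CPM per kb in KO cells and 264 CPM per kb in WT cells, and by Srsf5 with 250 CPM per kb in KO cells and 232 CPM per kb in WT cells. Among the snRNP genes Snrpb, which encodes the Sm proteins B and B′, led with 112 CPM per kb in KO cells and 111 CPM per kb in WT cells. Sf3b1, the largest subunit of SF3b, led the SF3 genes with 166 CPM per kb in KO cells and 165 CPM per kb in WT cells. Snrpd3, Snrpb2, Snrpd2, Snrpg and Snrpa, also parts of the U1 and U2 snRNPs or of their Sm ring, had mean levels of 15.0 to 21.8 CPM per kb in KO cells and 13.2 to 23.4 CPM per kb in WT cells. Srsf12 and Snrpn were near 0 throughout, with at most 0.427 CPM (Srsf12) and 0.338 CPM (Snrpn) in any library. Snrpn encodes a form of the Sm protein B that is known from the brain. These 2 genes did not pass the filter on low counts, and the other 50 were tested among the 12242 genes that did.

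The promoters of 4 genes that rose in both genotypes are shown, to compare the sequence at the start of the SR, hnRNP and snRNP genes with the largest responses. They are those with the largest summed log2 rise in each of these groups, and the first with an E-box or ETS motif, among genes that have a window in the RefSeq table and lie on other chromosomes than Snrpd1. Snrpd1 itself is thus not shown. It rose by 1.20 in KO cells and 0.85 in WT cells, against 1.05 and 0.99 for Snrpa. Each window holds 250 bases before and 50 bases after the annotated start (RefSeq, build GRCm38.p6) and is written 5′ to 3′ on the strand of the gene. Capitals mark every match, searched on both strands, to the E-box motif CACGTG, the ETS motif CCGGAAG and the TATA box motif TATAAA.
Srsf2 (chr11:116853045-116853344, minus strand): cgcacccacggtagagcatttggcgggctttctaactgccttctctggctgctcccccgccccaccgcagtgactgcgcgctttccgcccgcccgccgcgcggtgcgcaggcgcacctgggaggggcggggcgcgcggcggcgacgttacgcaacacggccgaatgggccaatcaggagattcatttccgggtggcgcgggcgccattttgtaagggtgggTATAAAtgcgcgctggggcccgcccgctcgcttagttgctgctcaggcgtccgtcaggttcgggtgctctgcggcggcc
Hnrnpab (chr11:51606832-51607131, minus strand): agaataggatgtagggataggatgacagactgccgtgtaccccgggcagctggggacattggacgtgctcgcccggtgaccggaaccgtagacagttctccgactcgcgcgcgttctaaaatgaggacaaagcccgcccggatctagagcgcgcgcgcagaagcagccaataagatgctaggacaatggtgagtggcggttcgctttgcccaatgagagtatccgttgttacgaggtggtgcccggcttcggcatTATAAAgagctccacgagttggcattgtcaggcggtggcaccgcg
Hnrnpf (chr6:117900090-117900389, plus strand): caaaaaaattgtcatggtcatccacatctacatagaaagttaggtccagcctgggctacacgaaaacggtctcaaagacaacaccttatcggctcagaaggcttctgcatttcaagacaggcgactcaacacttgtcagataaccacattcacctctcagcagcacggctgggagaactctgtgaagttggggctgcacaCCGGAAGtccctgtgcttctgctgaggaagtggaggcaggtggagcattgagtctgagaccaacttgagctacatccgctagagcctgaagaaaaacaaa
Snrpa (chr7:27196222-27196521, minus strand): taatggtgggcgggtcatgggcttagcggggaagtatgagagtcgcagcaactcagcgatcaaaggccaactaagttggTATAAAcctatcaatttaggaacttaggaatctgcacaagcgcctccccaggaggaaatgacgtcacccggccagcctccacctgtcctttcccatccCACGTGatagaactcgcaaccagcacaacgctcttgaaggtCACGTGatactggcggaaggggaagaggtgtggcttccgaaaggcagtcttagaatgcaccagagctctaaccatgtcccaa
The windows of Srsf2 and Hnrnpab hold a TATA box and neither of the other motifs. That of Hnrnpf, 1 of 4 windows of this gene, holds an ETS motif, and that of Snrpa, 1 of 2 windows, holds 2 E-boxes and a TATA box. A window was found for 46 of the 52 genes, 63 windows in all. An E-box lies in 11.1% of these 63 windows, against 10.1% of the 11575 windows of tested genes and 7.15% of all 32851 windows in the table. An ETS motif lies in 33.3% of them, against 17.9% of the windows of tested genes and 8.86% of all windows. A TATA box lies in 11.1%, against 7.0% of the windows of tested genes and 13.6% of all windows. Windows of 1 gene overlap, so these shares are descriptions, and a match is a run of letters, not a site.

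Many of these genes were higher at 2 h of anti-IgM in both genotypes, the snRNP protein genes most. In KO cells 22 of the 50 tested genes rose and 3 fell, where 27.1% of all 12242 tested genes were called, 14.1% as higher and 13.0% as lower. Rose, fell and called refer throughout to edgeR's two-sided quasi-likelihood test at a Benjamini-Hochberg adjusted p under 0.05 over all 12242 genes. In WT cells 12 rose and none fell, where 19.8% of all tested genes were called, 10.7% as higher and 9.06% as lower. The 44.0% of genes that rose in KO cells and the 24.0% in WT cells thus stand above the shares of higher calls over all genes. The B cell, marginal zone and B1, and T cell marker sums given above moved between the same groups, and their part in the 2 h difference was not tested. The median log2 difference of the 50 genes was 0.40 in KO cells and 0.30 in WT cells, against 0.04 in KO cells and 0.01 in WT cells over all tested genes, and the difference was positive for 42 of them in KO cells and 43 in WT cells. In KO cells 25 of the 50 genes lay higher in all 3 libraries at 2 h than in all 3 at 0 h and 4 lay lower, against 17.9% and 19.6% of all tested genes. In WT cells 27 lay higher and 5 lower, against 21.3% and 22.7% of all tested genes. All 12 genes that rose in WT cells also rose in KO cells, where they are 12 of 22. The count of 12 in WT cells depends on single libraries: it was 21 without KO 2 h replicate 1, which enters the shared estimate of the spread, and 7 without WT 2 h replicate 2 or without WT 0 h replicate 2. Calls over all tested genes in WT cells moved too, from 2419 to 3617 without KO 2 h replicate 1. They fell to 1278 without WT 2 h replicate 2 and to 1818 without WT 0 h replicate 2. When the batch 1 libraries of 2 h were left out in both genotypes, 24 genes rose and 3 fell in KO cells and 22 rose and 3 fell in WT cells, where 31.3% of all genes tested were called in KO cells and 28.9% in WT cells.

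**Figure D1:**
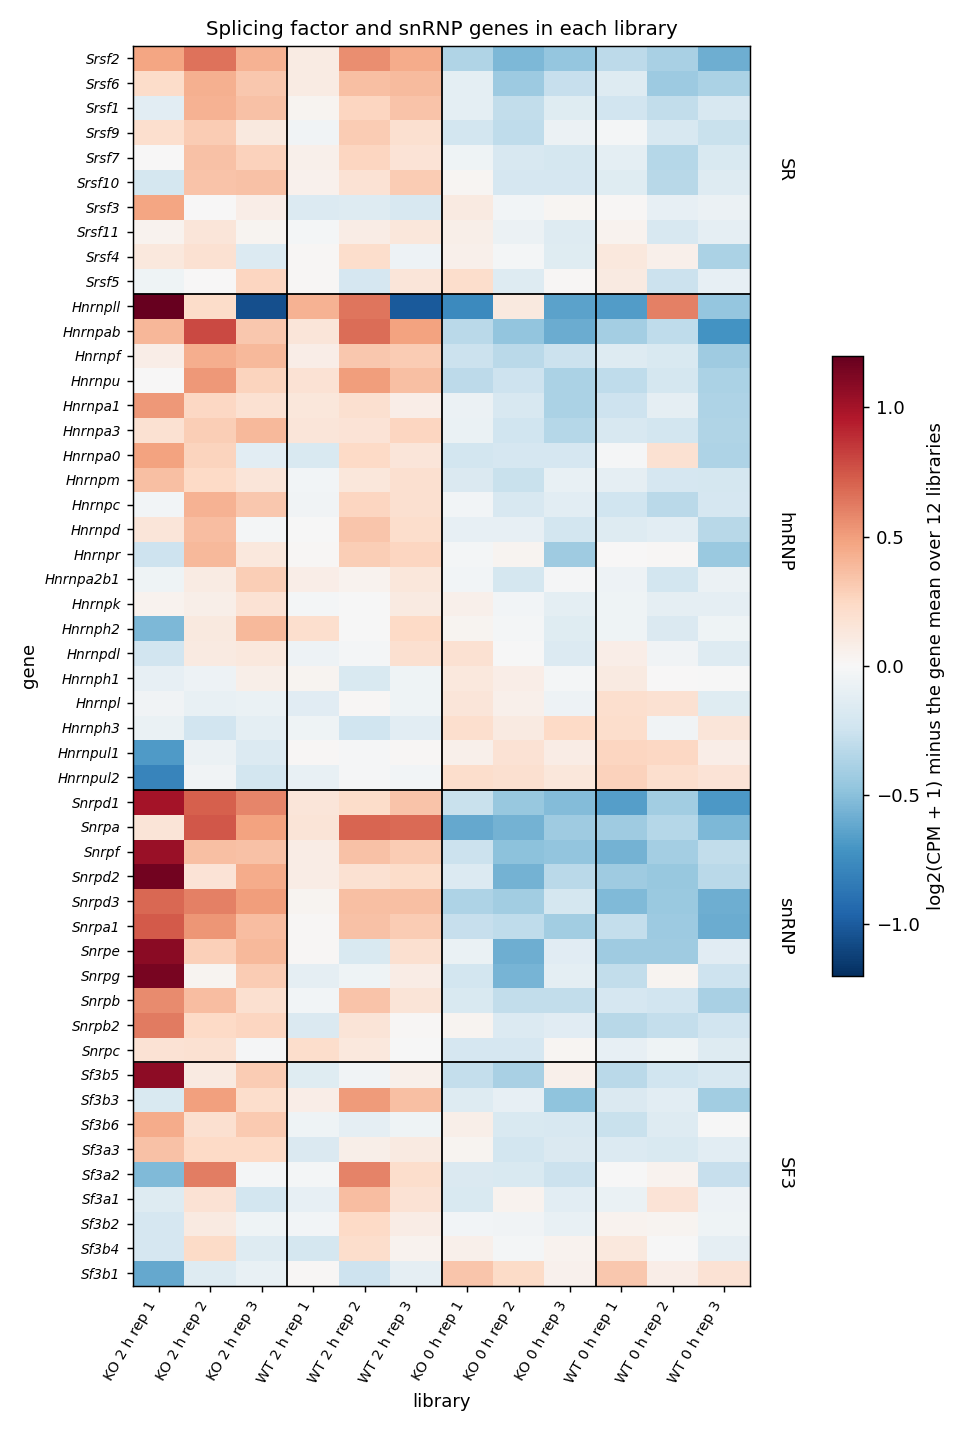
Heat map of the 50 tested splicing factor and snRNP genes (rows, by group and then by their log2 difference in KO cells) in the 12 libraries (columns; rep, replicate), as log2(CPM + 1) minus the mean of the gene over all libraries; the colour scale ends at 1.2 in either direction. The snRNP genes are red in most 2 h libraries, most strongly in KO 2 h replicate 1, and blue in the 0 h libraries, while Sf3b1, Hnrnpul1 and Hnrnpul2 run the other way.

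The snRNP protein genes moved nearly as 1 group. At 2 h they summed to 919, 729 and 690 CPM in KO cells, against 462, 412 and 443 CPM at 0 h. In WT cells the sums were 550, 662 and 646 CPM at 2 h, against 423, 434 and 410 CPM at 0 h. In KO cells 10 of the 11 tested genes rose, all but Snrpc, which encodes a U1 protein, with a median log2 difference of 0.89 and a range of 0.25 to 1.20. In WT cells 6 of 11 rose, with a median of 0.58 and a range of 0.15 to 0.99, and all 11 differences were positive in both genotypes. The shares that rose are 90.9% in KO cells and 54.5% in WT cells, against 14.1% and 10.7% of all tested genes. The medians over all tested genes were 0.04 in KO cells and 0.01 in WT cells. Without both 2 h libraries of batch 1 the snRNP medians were 0.63 in KO cells and 0.57 in WT cells, and 9 genes rose in KO cells and 8 in WT cells. The shares of all tested genes called in that fit are given above.

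Of the Sm ring, Snrpd1 (Sm D1, chromosome 18, 10617775 to 10642079, plus strand) had 72.1, 59.1 and 53.9 CPM in KO cells at 2 h, against 29.5, 25.7 and 24.5 CPM at 0 h. Snrpd1 had 39.6, 41.6 and 45.3 CPM in WT cells at 2 h, against 22.2, 26.4 and 21.7 CPM at 0 h. Every 2 h library of Snrpd1 lay above every 0 h library of either genotype. It rose by 1.20 ± 0.14 on the log2 scale in KO cells (SE; edgeR, adjusted p = 0.000163) and by 0.85 ± 0.14 in WT cells (edgeR, adjusted p = 0.00147), the largest rise of the 50 genes in KO cells among those called. Snrpd3 (Sm D3, chromosome 10, 75517551 to 75537381, plus strand) had 93.8, 88.2 and 82.0 CPM in KO cells at 2 h, against 44.5, 42.8 and 49.6 CPM at 0 h. Snrpd3 had 59.0, 74.5 and 74.3 CPM in WT cells at 2 h, against 39.7, 42.2 and 38.0 CPM at 0 h. Here too no 2 h library overlapped a 0 h library, and the rise was 0.94 ± 0.12 in KO cells (edgeR, adjusted p = 0.000271) and 0.79 ± 0.12 in WT cells (edgeR, adjusted p = 0.000968). Snrpf (Sm F) had 68.4, 42.7 and 42.2 CPM in KO cells at 2 h, against 27.3, 23.2 and 23.5 CPM at 0 h. Snrpf had 35.2, 42.2 and 40.9 CPM in WT cells at 2 h, against 21.9, 24.6 and 26.7 CPM at 0 h. The groups did not overlap in either genotype, with rises of 1.03 ± 0.18 in KO cells (edgeR, adjusted p = 0.00186) and 0.69 ± 0.18 in WT cells (edgeR, adjusted p = 0.0188). Snrpb (Sm B and B′) had 231, 201 and 178 CPM in KO cells at 2 h, against 137, 127 and 127 CPM at 0 h. Snrpb had 152, 197 and 173 CPM in WT cells at 2 h, against 135, 133 and 119 CPM at 0 h. It rose by 0.64 ± 0.13 in KO cells (edgeR, adjusted p = 0.00439) and by 0.43 ± 0.13 in WT cells (edgeR, adjusted p = 0.0381), again with no overlap.

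The rest of the ring, Snrpd2, Snrpe and Snrpg (Sm D2, E and G), rose in KO cells, with log2 differences of 0.99 ± 0.21, 0.88 ± 0.21 and 0.86 ± 0.25, while the WT differences of 0.58 ± 0.21, 0.35 ± 0.21 and 0.15 ± 0.25 were not called. Their levels were highest in KO 2 h replicate 1, where Snrpg had 56.2 CPM against 25.5 and 31.1 CPM in the other 2 KO libraries at 2 h. Without both 2 h libraries of batch 1 Snrpg differed by 0.44 in KO cells and was no longer called (edgeR, adjusted p = 0.0709), and so it was without KO 0 h replicate 1 (edgeR, adjusted p = 0.0621) or replicate 2 (edgeR, adjusted p = 0.0898). The WT call of Snrpb was lost in 8 of the 12 fits that leave out a library, every one but those without KO 2 h replicates 1 to 3 and WT 2 h replicate 1, at adjusted p up to 0.165. That of Snrpf was lost without WT 0 h replicate 1 or 2 or WT 2 h replicate 2 or 3, at adjusted p up to 0.0788.

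Of the proteins particular to U1 and U2, Snrpa and Snrpa1 rose in both genotypes, Snrpb2 in KO cells alone, and Snrpc was not called. Snrpa (the U1 protein A, which binds a loop of the U1 RNA; chromosome 7, 27187005 to 27196271, minus strand) had 48.7, 73.8 and 61.2 CPM in KO cells at 2 h, against 28.1, 29.0 and 32.1 CPM at 0 h. Snrpa had 48.6, 71.4 and 70.1 CPM in WT cells at 2 h, against 32.1, 34.1 and 29.6 CPM at 0 h. It rose by similar amounts in both genotypes, 1.05 ± 0.17 in KO cells (fold 2.07; edgeR, adjusted p = 0.00127) and 0.99 ± 0.17 in WT cells (fold 1.99; edgeR, adjusted p = 0.00242). Snrpa1 (the U2 protein A′, chromosome 7, 66059003 to 66074587, plus strand) had 82.9, 71.8 and 63.9 CPM in KO cells at 2 h, against 40.6, 39.8 and 36.7 CPM at 0 h. Snrpa1 had 49.8, 63.4 and 61.3 CPM in WT cells at 2 h, against 40.4, 36.2 and 32.4 CPM at 0 h. Its rise was 0.89 ± 0.13 in KO cells (edgeR, adjusted p = 0.000802) and 0.68 ± 0.13 in WT cells (edgeR, adjusted p = 0.00476), without overlap. Snrpb2 (the U2 protein B′′, the partner of A′) rose by 0.47 ± 0.13 in KO cells (edgeR, adjusted p = 0.0189), a call lost without KO 0 h replicate 2 (adjusted p = 0.0711) or 3 (adjusted p = 0.0659). It differed by 0.29 ± 0.13 in WT cells, which was not called. Snrpc differed by 0.25 ± 0.13 in KO cells and 0.22 ± 0.12 in WT cells, neither called.

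SR genes summed to 3473, 4019 and 3821 CPM in KO cells at 2 h, against 3083, 2667 and 2789 CPM at 0 h. In WT cells they summed to 3257, 3721 and 3772 CPM at 2 h, against 2963, 2604 and 2683 CPM at 0 h. Each genotype's 2 h libraries all lay above its 0 h libraries. Of the 10 tested genes 3 rose in KO cells (Srsf2, Srsf6 and Srsf9) and 2 in WT cells (Srsf2 and Srsf6), with none falling, and the median log2 difference was 0.34 in KO cells and 0.35 in WT cells. The SR genes that rose are 30% in KO cells and 20% in WT cells, against 14.1% and 10.7% of all tested genes. In each genotype 6 SR genes rose when both 2 h libraries of batch 1 were left out, a fit whose shares over all genes are given above. Srsf2, long known as SC35, a marker of nuclear speckles (chromosome 11, 116849901 to 116853094, minus strand), had 668, 754 and 641 CPM in KO cells at 2 h, against 374, 329 and 347 CPM at 0 h. Srsf2 had 515, 705 and 654 CPM in WT cells at 2 h, against 385, 367 and 319 CPM at 0 h. Its 2 h values were clear of the 0 h values in both genotypes, with rises of 0.97 ± 0.15 in KO cells (edgeR, adjusted p = 0.000756) and 0.81 ± 0.15 in WT cells (edgeR, adjusted p = 0.0029). Per kb it had the highest mean of the SR genes at 2 h, 362 CPM per kb in KO cells and 329 CPM per kb in WT cells, ahead of Srsf5 with 258 CPM per kb in KO cells and 243 CPM per kb in WT cells.

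Srsf6, an SR protein that regulates alternative exons, had 522, 603 and 560 CPM in KO cells at 2 h, against 413, 331 and 369 CPM at 0 h. Srsf6 had 481, 574 and 583 CPM in WT cells at 2 h, against 401, 330 and 343 CPM at 0 h. It rose by nearly the same amount in both, 0.60 ± 0.14 in KO cells (edgeR, adjusted p = 0.00825) and 0.61 ± 0.14 in WT cells (edgeR, adjusted p = 0.00953, and 0.0547 without WT 0 h replicate 2). Srsf9 had 67.7, 72.6 and 63.8 CPM in KO cells at 2 h, against 50.1, 47.4 and 55.7 CPM at 0 h. Srsf9 had 56.9, 72.8 and 67.1 CPM in WT cells at 2 h, against 57.5, 51.3 and 48.5 CPM at 0 h. Its groups were apart in KO cells and overlapped in WT cells, where batch 1 showed no rise. The difference was 0.41 ± 0.12 in KO cells (edgeR, adjusted p = 0.0256) and 0.32 ± 0.12 in WT cells (edgeR, adjusted p = 0.0815), and the KO call was lost without KO 0 h replicate 1 (adjusted p = 0.0834), KO 0 h replicate 2 (adjusted p = 0.0982) or KO 2 h replicate 2 (adjusted p = 0.0864).

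Srsf1, the SR protein first described as ASF or SF2, had 460, 674 and 643 CPM in KO cells at 2 h, against 465, 410 and 455 CPM at 0 h. Srsf1 had 514, 600 and 636 CPM in WT cells at 2 h, against 428, 410 and 441 CPM at 0 h. KO 2 h replicate 1 lay within the 0 h values and the other 2 h libraries above them. Srsf7 had 404, 516 and 487 CPM in KO cells at 2 h, against 389, 352 and 347 CPM at 0 h. Srsf7 had 420, 483 and 451 CPM in WT cells at 2 h, against 371, 317 and 354 CPM at 0 h. All 2 h libraries of Srsf7 lay above the 0 h libraries of the same genotype. Srsf10 had 180, 265 and 267 CPM in KO cells at 2 h, against 213, 181 and 181 CPM at 0 h. Srsf10 had 216, 236 and 259 CPM in WT cells at 2 h, against 189, 166 and 188 CPM at 0 h. KO 2 h replicate 1 lay below the 0 h values of KO cells, while the WT groups of Srsf10 were apart. None of these 3 genes was called in either genotype. Without KO 2 h replicate 1 all 3 were called higher in KO cells, and in WT cells too; that library enters the shared estimate of the spread. Srsf3, Srsf4, Srsf5 and Srsf11 differed by 0.05 to 0.16 in KO cells and by -0.12 to 0.15 in WT cells and were not called.

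**Figure D2:**
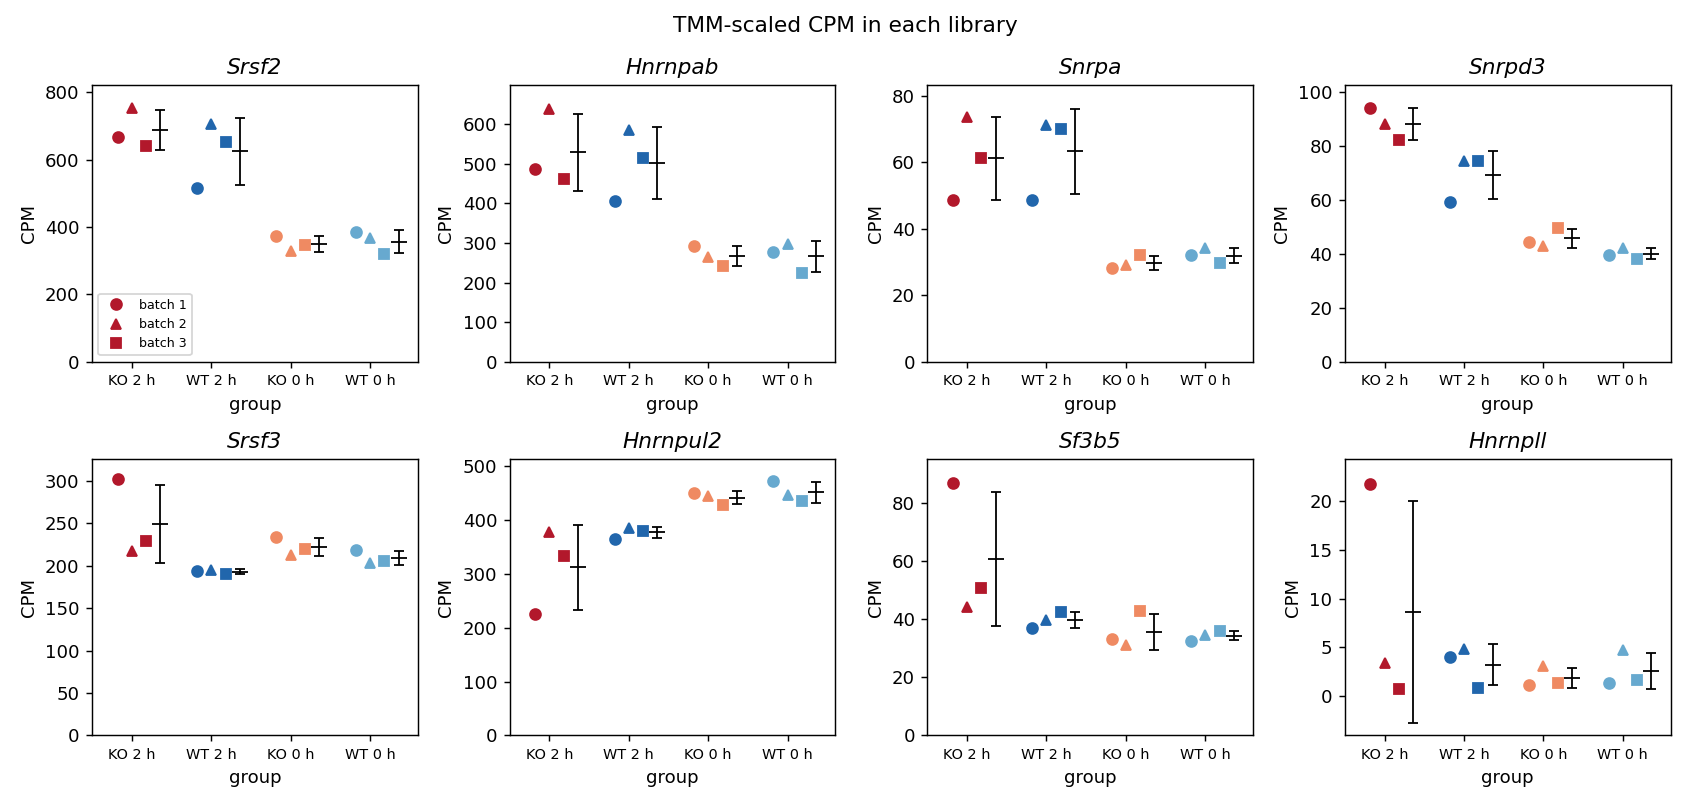
CPM (linear axis) of 8 genes in each library, with groups on the horizontal axis, 1 marker per library (circle, triangle and square for batches 1, 2 and 3) and black bars for the mean and SD of 3 libraries. Srsf2, Hnrnpab, Snrpa and Snrpd3 are higher at 2 h in every library, whereas the mean of Sf3b5 and of Hnrnpll in KO cells at 2 h is carried by replicate 1, with 87.0 and 21.7 CPM.

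The hnRNP genes were mixed. Their sums were 7045, 8061 and 7609 CPM in KO cells at 2 h, against 6650, 6337 and 6118 CPM at 0 h. In WT cells the hnRNP sums were 6987, 7715 and 7665 CPM at 2 h, against 6565, 6463 and 5959 CPM at 0 h. In KO cells 6 of 20 rose (Hnrnpa1, Hnrnpa3, Hnrnpab, Hnrnpf, Hnrnpm and Hnrnpu) and 2 fell (Hnrnph3 and Hnrnpul2), with a median log2 difference of 0.28. In WT cells 4 of 20 rose (Hnrnpa3, Hnrnpab, Hnrnpf and Hnrnpu) and none fell, with a median of 0.26. That is 30% higher and 10% lower in KO cells, against 14.1% and 13.0% of all tested genes. In WT cells 20% were higher, against 10.7% of all tested genes. The share that fell in KO cells is thus not above that of all genes. In each genotype 7 rose and 2 fell when both 2 h libraries of batch 1 were left out, a fit whose shares over all genes are given above. Hnrnpab, which also binds DNA and cytoplasmic mRNA (chromosome 11, 51600100 to 51606847, minus strand), moved most among the called genes. It had 486, 639 and 461 CPM in KO cells at 2 h, against 293, 265 and 243 CPM at 0 h. Hnrnpab had 406, 586 and 514 CPM in WT cells at 2 h, against 277, 298 and 223 CPM at 0 h. All 2 h values were above all 0 h values, and the rise was 0.99 ± 0.18 in KO cells (edgeR, adjusted p = 0.00241) and 0.92 ± 0.18 in WT cells (edgeR, adjusted p = 0.00482).

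Hnrnpf, which binds runs of G (chromosome 6, 117900324 to 117925622, plus strand), had 159, 204 and 198 CPM in KO cells at 2 h, against 126, 120 and 126 CPM at 0 h. Hnrnpf had 159, 189 and 187 CPM in WT cells at 2 h, against 135, 133 and 112 CPM at 0 h. Its groups did not overlap, with rises of 0.60 ± 0.13 in KO cells (edgeR, adjusted p = 0.00544) and 0.50 ± 0.13 in WT cells (edgeR, adjusted p = 0.0174). Hnrnpu, the scaffold attachment factor A (chromosome 1, 178321108 to 178337797, minus strand), had 820, 1170 and 984 CPM in KO cells at 2 h, against 659, 688 and 628 CPM at 0 h. Hnrnpu had 920, 1160 and 1050 CPM in WT cells at 2 h, against 661, 708 and 628 CPM at 0 h. This hnRNP gene had the highest CPM at 2 h, and it rose by 0.59 ± 0.15 in KO cells (edgeR, adjusted p = 0.0126) and by 0.64 ± 0.15 in WT cells (edgeR, adjusted p = 0.0108). Hnrnpa3 had 330, 357 and 380 CPM in KO cells at 2 h, against 274, 246 and 228 CPM at 0 h. Hnrnpa3 had 320, 325 and 348 CPM in WT cells at 2 h, against 254, 248 and 225 CPM at 0 h. It rose by 0.51 ± 0.12 in KO cells (edgeR, adjusted p = 0.00804) and by 0.45 ± 0.12 in WT cells (edgeR, adjusted p = 0.0193), but reads of this gene may be shared, since GENCODE lists 32 pseudogene copies of it. Without WT 0 h replicate 3 the WT calls of Hnrnpf (edgeR, adjusted p = 0.0889), Hnrnpu (0.0539) and Hnrnpa3 (0.0921) were lost, and without WT 2 h replicate 2 likewise (0.0805, 0.061 and 0.0612, in the same order). Those of Hnrnpf and Hnrnpa3 were lost without WT 0 h replicate 2 or WT 2 h replicate 3 as well, and that of Hnrnpa3 without WT 0 h replicate 1. The KO call of Hnrnpu was lost without KO 0 h replicate 3 (edgeR, adjusted p = 0.053).

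Hnrnpa1, the hnRNP best known for repressing exons, had 533, 442 and 423 CPM in KO cells at 2 h, against 355, 326 and 286 CPM at 0 h. Hnrnpa1 had 408, 425 and 392 CPM in WT cells at 2 h, against 313, 346 and 287 CPM at 0 h. Both genotypes were apart between times, with a rise of 0.53 ± 0.14 in KO cells (edgeR, adjusted p = 0.0132, and 0.061 without KO 0 h replicate 3) and an uncalled difference of 0.37 ± 0.14 in WT cells (edgeR, adjusted p = 0.0749). Hnrnpm had 517, 475 and 444 CPM in KO cells at 2 h, against 356, 333 and 376 CPM at 0 h. Hnrnpm had 393, 442 and 459 CPM in WT cells at 2 h, against 371, 348 and 347 CPM at 0 h. No library of 2 h overlapped one of 0 h here either, with 0.43 ± 0.12 in KO cells (edgeR, adjusted p = 0.0177, and 0.0593 without KO 0 h replicate 1 and 0.0785 without KO 0 h replicate 2) and 0.28 ± 0.12 in WT cells, which was not called. Hnrnpa2b1, the most abundant per kb, differed by 0.20 ± 0.13 in both genotypes and was not called.

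The genes that fell, Hnrnph3, Hnrnpul2 and Sf3b1, were called in KO cells alone and close to the threshold. Hnrnpul2, an hnRNP U-like protein, averaged 312 ± 78.9 CPM in KO cells at 2 h, against 442 ± 11.4 CPM at 0 h (SD, n = 3 each). In WT cells it averaged 378 ± 10.7 CPM at 2 h, against 452 ± 19.6 CPM at 0 h. All 6 animals had less at 2 h, with log2 differences of -0.50 ± 0.16 in KO cells (edgeR, adjusted p = 0.0416) and -0.26 ± 0.16 in WT cells (edgeR, adjusted p = 0.318). Hnrnph3, related to the G-run binding protein Hnrnph1, averaged 55.4 ± 3.07 CPM in KO cells at 2 h, against 69.7 ± 3.36 CPM at 0 h. Its WT averages were 55.6 ± 3.77 CPM at 2 h, against 66.1 ± 5.92 CPM at 0 h. It too was lower in every animal, by -0.33 ± 0.10 in KO cells (edgeR, adjusted p = 0.0326) and -0.25 ± 0.10 in WT cells (edgeR, adjusted p = 0.113, and 0.048 with the batch as a replicate block). The call of Hnrnph3 was lost without KO 0 h replicates 1 or 3, KO 2 h replicates 2 or 3 or WT 2 h replicate 3, at adjusted p up to 0.0979. That of Hnrnpul2 was lost without any 1 of 10 libraries, all but KO 2 h replicates 1 and 2, at adjusted p up to 0.108. Hnrnpll, which regulates the splicing of CD45 in lymphocytes, had 21.7, 3.38 and 0.805 CPM in KO cells at 2 h, against 1.21, 3.06 and 1.40 CPM at 0 h. Hnrnpll had 4.0, 4.86 and 0.864 CPM in WT cells at 2 h, against 1.35, 4.71 and 1.71 CPM at 0 h. Its high value lay in KO 2 h replicate 1 alone, and the difference of 2.12 ± 1.03 in KO cells was not called.

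The SF3 genes had the smallest median response in WT cells. In KO cells 3 of 9 rose (Sf3a3, Sf3b5 and Sf3b6) and 1 fell (Sf3b1), with a median log2 difference of 0.32. That median rests on KO 2 h replicate 2, without which it was -0.04. The shares were 33.3% higher and 11.1% lower, against 14.1% and 13.0% of all tested genes, so the share that fell lies near that of all genes. In WT cells none of 9 was called (edgeR; 1, Sf3b3, had an unadjusted p under 0.05, and DESeq2 called 1), with a median of 0.15, or 0.25 when WT 2 h replicate 1 and 0.09 when WT 2 h replicate 2 was left out. The gene at the KO median, Sf3a2, which encodes a subunit of SF3a, had 49.1, 110 and 70.0 CPM in KO cells at 2 h, against 63.3, 62.9 and 59.4 CPM at 0 h, and was not called. Leaving out both 2 h libraries of batch 1, 2 rose and 1 fell in KO cells and 1 rose and 1 fell in WT cells. The shares over all genes in that fit are given above, and in WT cells the reported fit called 19.8% of all tested genes. Sf3b1, which clamps the branch site (chromosome 1, 54985169 to 55027481, minus strand), had 586, 803 and 842 CPM in KO cells at 2 h, against 1130, 1050 and 925 CPM at 0 h. Sf3b1 had 905, 754 and 829 CPM in WT cells at 2 h, against 1120, 945 and 1010 CPM at 0 h. It was lower at 2 h in every animal, by -0.47 ± 0.16 in KO cells (edgeR, adjusted p = 0.0449) and -0.30 ± 0.16 in WT cells (edgeR, adjusted p = 0.214). The call was lost in 11 of the 12 fits that leave out a library, all but that without KO 2 h replicate 3, at edgeR adjusted p up to 0.151.

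Sf3b6, the small subunit that contacts the branch-site adenosine (chromosome 12, 4817544 to 4827659, plus strand), had 72.8, 61.1 and 66.6 CPM in KO cells at 2 h, against 56.0, 46.8 and 46.4 CPM at 0 h. Sf3b6 had 51.4, 49.5 and 51.3 CPM in WT cells at 2 h, against 44.1, 47.8 and 53.1 CPM at 0 h. KO libraries at 2 h stood above all others, while WT libraries overlapped between times, with 0.42 ± 0.11 in KO cells (edgeR, adjusted p = 0.0177) and 0.07 ± 0.11 in WT cells (edgeR, adjusted p = 0.729). Sf3a3 had 105, 97.1 and 97.0 CPM in KO cells at 2 h, against 83.9, 70.6 and 72.9 CPM at 0 h. Sf3a3 had 72.8, 86.6 and 88.9 CPM in WT cells at 2 h, against 73.5, 72.2 and 75.0 CPM at 0 h. This subunit of SF3a rose by 0.39 ± 0.11 in KO cells (edgeR, adjusted p = 0.0192) and differed by 0.17 ± 0.11 in WT cells, where batch 1 showed no difference. Sf3b5 had 87.0, 44.3 and 50.8 CPM in KO cells at 2 h, against 33.3, 31.0 and 42.7 CPM at 0 h. Sf3b5 had 37.0, 39.7 and 42.6 CPM in WT cells at 2 h, against 32.6, 34.6 and 35.8 CPM at 0 h. Its rise of 0.74 ± 0.22 in KO cells (edgeR, adjusted p = 0.0249) was largest in batch 1, at 1.38, against 0.51 and 0.25 in batches 2 and 3. Sf3b3 had 293, 469 and 385 CPM in KO cells at 2 h, against 299, 311 and 238 CPM at 0 h. Sf3b3 had 353, 474 and 429 CPM in WT cells at 2 h, against 295, 305 and 249 CPM at 0 h, and was not called in either genotype. Without both 2 h libraries of batch 1, Sf3b5 (0.38; edgeR, adjusted p = 0.0648) and Sf3b6 (0.32; edgeR, adjusted p = 0.0541) were no longer called in KO cells. Without KO 0 h replicate 2, the calls of Sf3b5 (edgeR, adjusted p = 0.089), Sf3b6 (0.0727) and Sf3a3 (0.0832) were lost. Those of Sf3b6 (edgeR, adjusted p = 0.0725) and Sf3a3 (0.0704) were lost without KO 0 h replicate 3, and that of Sf3b5 (0.0851) without KO 0 h replicate 1.

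**Figure D3:**
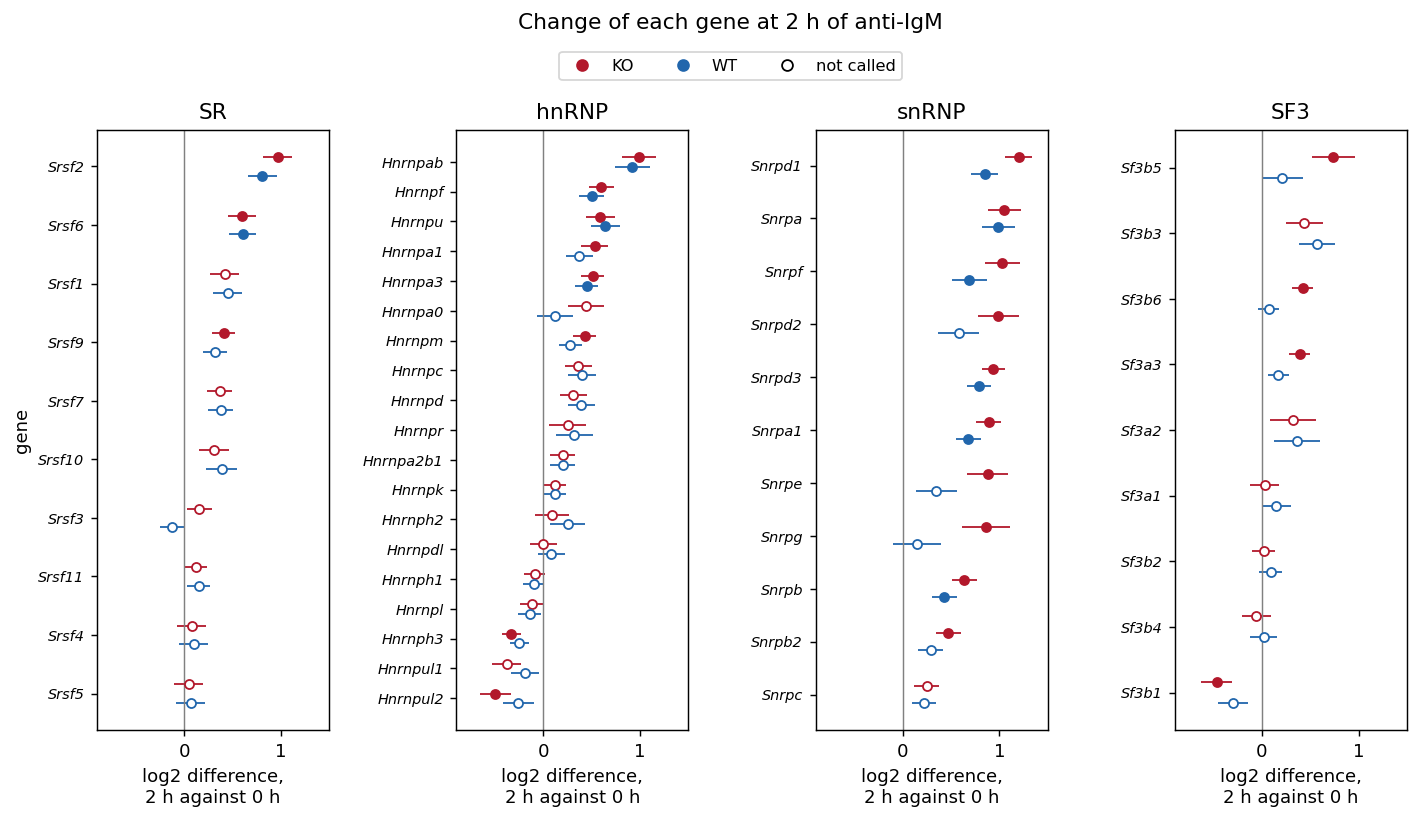
Log2 difference of 2 h against 0 h (horizontal axis) for each tested gene (rows) in KO cells (red) and WT cells (blue), in 1 panel per group; points are edgeR estimates, bars their SE, and open points were not called. All 11 snRNP genes lie right of 0 in both genotypes, and their red points lie right of their blue points; Hnrnpll, with 2.12 in KO cells and 0.32 in WT cells, lies outside the axis and is left out.

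With the batch as a replicate block, 22 members rose and 2 fell in KO cells and 17 rose and 1 fell in WT cells, where the same fit called 32.0% of all tested genes in KO cells and 24.9% in WT cells. Sf3b1 was the member whose KO call was lost (edgeR, adjusted p = 0.0544). The 6 called in addition in WT cells were Hnrnpd (0.39; edgeR, adjusted p = 0.0369), Hnrnpa1 (0.38; 0.04), Sf3b3 (0.56; 0.0286), Snrpd2 (0.58; 0.0447) and Srsf1 (0.45; 0.0493), which rose, and Hnrnph3, which fell. With the animal as a replicate block, 20 members rose and 1 fell in KO cells and 11 rose in WT cells, where 26.6% of all tested genes were called in KO cells and 19.7% in WT cells. Hnrnpm (edgeR, adjusted p = 0.0508), Srsf9 (0.0683), Hnrnpul2 (0.0544) and Sf3b1 (0.0727) were then no longer called in KO cells. In WT cells Hnrnpa3 (edgeR, adjusted p = 0.0615) and Snrpb (0.0566) lost their call, and Snrpd2 gained one (0.0242).

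The responses of the 2 genotypes were then compared directly. The response of KO cells exceeded that of WT cells for all 11 snRNP genes, with a median difference of responses of 0.21 on the log2 scale and a range of 0.02 (Snrpc) to 0.71 (Snrpg). Of these, Snrpc, Snrpa and Snrpb2 fell below 0, to -0.10 at the lowest (Snrpa), in some of the fits that leave out libraries. The medians were -0.02 for the SR, 0 for the hnRNP and -0.08 for the SF3 genes; those of the SR and SF3 genes were 0.09 and 0.03 without KO 2 h replicate 1. No difference of responses was called by edgeR, for any of the 50 genes or of the 12242 tested (0%). At an unadjusted p under 0.05 there were 0 of the 50 and 40 of all genes, and DESeq2 called none. The smallest p belonged to Sf3b6, with 0.35 ± 0.16 (edgeR, unadjusted p = 0.0503), and Snrpg, with 0.71 ± 0.35 (edgeR, unadjusted p = 0.0672). For Srsf2, Hnrnpab and Snrpa the differences of 0.17 ± 0.20, 0.07 ± 0.25 and 0.06 ± 0.24 were no larger than their SE. Without KO 2 h replicate 1 the snRNP median was 0.11, and leaving out the 2 h libraries of batch 1 in both genotypes brought it to 0.03. The 10 genes that rose and the 3 that fell in KO cells alone are therefore not shown to respond differently in WT cells.

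In unstimulated cells KO and WT levels were close. At 0 h none of the 50 genes, and none of the 12242 tested (0%), was called between KO and WT cells by edgeR. At an unadjusted p under 0.05 there were 0 of the 50 and 91 of all genes, and DESeq2 called 1 gene, which is none of the 50. The median log2 difference was 0.03 over the 50 genes, 0.06 for SR, 0.02 for hnRNP, 0.06 for snRNP and 0.01 for SF3 genes, against 0 over all tested genes. Without KO 0 h replicate 1 these medians were -0.03, -0.01, -0.04, -0.02 and -0.05, in the same order. Apart from Hnrnpll, with -0.45 ± 1.0, the differences lay between -0.16 and 0.20. KO libraries lay above all WT libraries for 3 genes, Hnrnpc, Snrpb2 and Snrpd3, against 2.95% of all tested genes, and below them for none, against 2.90%. Snrpd3 had 44.5, 42.8 and 49.6 CPM in KO cells, against 39.7, 42.2 and 38.0 CPM in WT cells, a log2 difference of 0.19 ± 0.12. Snrpb2 had 40.8, 35.5 and 36.1 CPM in KO cells, against 31.5, 32.6 and 33.9 CPM in WT cells, a difference of 0.20 ± 0.13. Neither was called (edgeR, adjusted p = 0.9999).

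At 2 h the KO libraries tended to hold more snRNP mRNA, but again no gene was called. Of the 50 genes, and of the 12242 tested (0%), none passed in edgeR, where 11 of the 50 and 640 of all genes had an unadjusted p under 0.05, and DESeq2 called 2 genes, none of the 50. The medians were 0.35 for the snRNP, 0.05 for the SR, 0.04 for the hnRNP and -0.13 for the SF3 genes, against 0.01 over all tested genes. That of the SF3 genes was 0.03 without KO 2 h replicate 1, and that of the SR genes -0.02 without KO 2 h replicate 2 and -0.04 without WT 2 h replicate 1. KO libraries lay above all WT libraries for 9 genes, against 4.62% of all tested genes, and below them for 1, Hnrnpul1, against 3.60%. The 9 were 5 snRNP genes (Snrpa1, Snrpb2, Snrpd1, Snrpd3 and Snrpe), Sf3a3, Sf3b5 and Sf3b6, and Srsf3. These differences share the KO 2 h libraries with the response of KO cells and are not a separate set of measurements.

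Snrpd1 had the smallest p, with 72.1, 59.1 and 53.9 CPM in KO cells at 2 h, against 39.6, 41.6 and 45.3 CPM in WT cells at 2 h. The log2 difference was 0.54 ± 0.13 (edgeR, adjusted p = 0.887), and was 0.86, 0.50 and 0.25 in batches 1, 2 and 3. Sf3b6 followed, with 72.8, 61.1 and 66.6 CPM in KO cells at 2 h, against 51.4, 49.5 and 51.3 CPM in WT cells at 2 h, a difference of 0.39 ± 0.11, or 0.50, 0.30 and 0.38 by batch. Its difference was of like size in the 3 batches. Snrpd3 had 0.34 ± 0.12, and 0.67, 0.24 and 0.14 by batch. Snrpb2 had 61.9, 47.4 and 48.0 CPM in KO cells at 2 h, against 35.2, 44.5 and 40.3 CPM in WT cells at 2 h. Its difference was 0.38 ± 0.13, and 0.81, 0.09 and 0.25 by batch, so that batch 1 gave the largest value for both genes. Leaving out KO 2 h replicate 1 brought the snRNP median at 2 h to 0.21, and leaving out both 2 h libraries of batch 1 to 0.13.

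Several measures moved with the snRNP result. Of the 11 tested snRNP genes, 4 have a principal transcript of at most 1000 bases (Snrpe, Snrpc, Snrpd1 and Snrpf, at 503 to 861 bases), and no other of the 50 genes has. The other snRNP transcripts run from 1055 bases (Snrpg) to 3036 bases (Snrpd3). Of all tested genes, 11016 have a transcript length. The 656 of at most 1000 bases had a median log2 difference, KO against WT at 2 h, of 0.34, or 0.73, 0.06 and 0.20 in batches 1, 2 and 3. For the 4 snRNP genes the median was 0.45, or 0.91, 0.27 and 0.12 by batch. At the other end, the 3439 tested genes over 4000 bases had a median of -0.10, or -0.28, -0.01 and -0.09 by batch. The 8 of the 50 genes in that class, among them Hnrnpul2 and Sf3b1, had -0.10, or -0.22, 0.03 and -0.14. At 0 h the short genes had a median of 0.03 and the long ones of -0.02. The library with 52.3% Rn45s counts, KO 2 h replicate 1, is the KO member of the batch 1 pair, and its sum of dividing-cell markers was 930 CPM, against 251 CPM in WT 2 h replicate 1. Plasma cell markers summed to 49.8 to 74.0 CPM in KO cells at 2 h, against 74.5 to 104 CPM in WT cells at 2 h. Of these, Sdc1 had 29.7 to 45.1 CPM in KO cells at 2 h, against 51 to 81.5 CPM in WT cells at 2 h. Prdm1 overlapped between the genotypes at 2 h, and Tnfrsf17 was near the floor. Sdc1 was lower in KO cells at 0 h as well, with 40.2 to 56.3 CPM, against 63 to 81.2 CPM in WT cells. The part of transcript length, Rn45s share and these markers in the KO and WT difference was not tested.

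**Figure D4:**
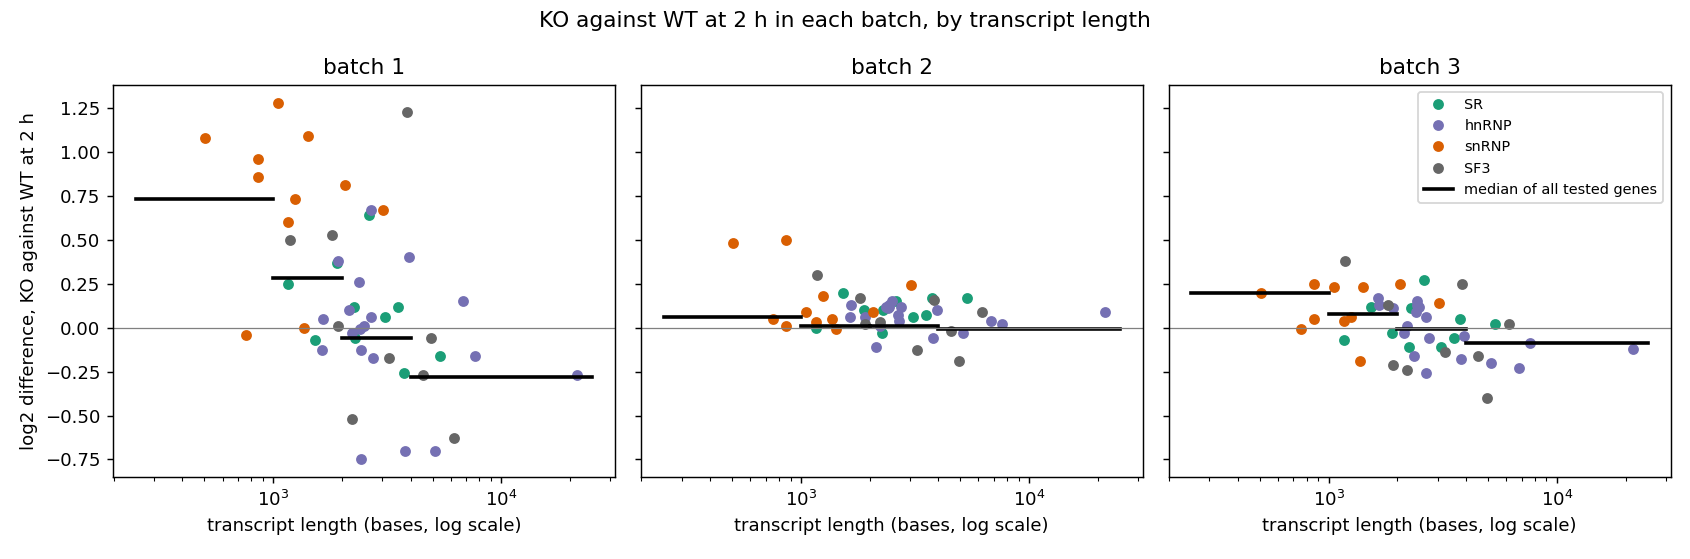
Log2 difference of KO against WT at 2 h (vertical axis) in each batch (panels) by the length of the principal transcript (horizontal log axis, bases); points are the tested splicing factor and snRNP genes except Hnrnpll, coloured by group, and black lines the medians of all tested genes up to 1000, 2000 and 4000 bases and above. In batch 1 the median falls by class, from 0.73 for short to -0.28 for long genes, with the snRNP genes at the upper left; in batches 2 and 3 the lines lie nearer to 0.

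Length goes with the response to anti-IgM in KO cells as well. Short genes had a median log2 difference, 2 h against 0 h, of 0.39 in KO cells and 0.08 in WT cells, whereas the 4 short snRNP genes had 0.95 in KO cells and 0.52 in WT cells. By batch the KO values of these 4 were 1.23, 0.88 and 0.69, against 0.71, 0.19 and 0.14 over all short genes, and their WT values 0.56, 0.45 and 0.47, against 0.11, 0.04 and 0.03. In each batch and genotype the median of these 4 genes was above that of all short genes. The longer snRNP genes were not set against their length classes. Over 4000 bases, the median of all tested genes was -0.08 in KO cells and -0.04 in WT cells. The 8 members of that class had 0.28 in KO cells and 0.36 in WT cells. Among these 8, Hnrnpu (7640 bases) rose in both genotypes, while Sf3b1 (6195 bases) and Hnrnpul2 (5118 bases) fell in KO cells. The part of transcript length in the 2 h difference was not tested.

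Read assignment limits some of these values. A GENCODE pseudogene matches at least 90% of the letters over at least 50% of the coding sequence of 23 of the 52 genes, with 10 or more such copies for 2, Hnrnpa3 (32) and Hnrnpa1 (12). The exons of 14 genes overlap another protein-coding gene, among them Srsf2 (Mfsd11 and Mettl23), Hnrnpab (Phykpl), Hnrnpu (Cox20), Snrpd3 (Gucd1) and Snrpf (Ccdc38), all on the opposite strand. No source states whether the counting used strand, so reads of such pairs cannot be told apart. GENCODE lists a transcript subject to nonsense-mediated decay for 9 of the 11 SR genes, for example 2 of 6 for Srsf2 and 2 of 10 for Srsf3, and the counts do not show whether such forms changed.

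Other genes of the splicing machinery, in 8 lists of 127 tested genes, are given by their counts of calls. In KO cells 31 rose and 10 fell, and in WT cells 24 rose and 5 fell, with a median log2 difference of 0.19 in both genotypes. That is 24.4% higher and 7.87% lower in KO cells, against 14.1% and 13.0% of all tested genes, and 18.9% higher and 3.94% lower in WT cells, against 10.7% and 9.06%. The list of snRNP assembly and Sm methylation holds the SMN complex and the methylosome, which load Sm rings onto small nuclear RNA. Of its genes, 9 of 16 (56.2%) rose in KO cells and 7 of 16 (43.8%) in WT cells, with medians of 0.64 in KO cells and 0.48 in WT cells. Its genes with the smallest p were Clns1a, Strap, Wdr77 and Gemin4, all called in both genotypes. Clns1a, which chaperones Sm proteins, rose by 0.81 ± 0.11 in KO cells and 0.58 ± 0.11 in WT cells, and Wdr77, the partner of the methyltransferase Prmt5, by 0.68 ± 0.10 in KO cells and 0.59 ± 0.10 in WT cells. Strap rose by 0.96 ± 0.14 in KO cells and 0.81 ± 0.14 in WT cells, and Gemin4 by 0.82 ± 0.14 in KO cells and 0.83 ± 0.14 in WT cells. Of the LSM ring genes Lsm1 to Lsm8, 4 of 8 (50%) rose in KO cells and 2 of 8 (25%) in WT cells, led by Lsm2 (0.97 ± 0.12 in KO cells and 1.09 ± 0.12 in WT cells). Among tri-snRNP genes 3 of 17 rose in KO cells and 5 of 17 (29.4%) in WT cells, with Nhp2l1, which binds U4, at 1.09 ± 0.22 in KO cells and 0.92 ± 0.21 in WT cells. The 17.6% of tri-snRNP genes that rose in KO cells lie near the 14.1% of all genes.

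Of the other U1, U2 and splice site genes, 5 of 16 rose in KO cells and 2 of 16 in WT cells. That is 31.2% in KO cells and 12.5% in WT cells, against 14.1% and 10.7% of all tested genes. The WT share thus lies near that of all genes. Among them U2af1, which reads the end of the intron, rose by 0.66 ± 0.14 in KO cells and 0.53 ± 0.14 in WT cells. The SR-related proteins and SR kinases split, with 3 rising and 2 falling of 18 in KO cells and 2 rising in WT cells, shares of higher calls of 16.7% in KO cells and 11.1% in WT cells that lie near those of all genes. Tra2b, an SR-like exon activator, rose by 0.63 ± 0.10 in KO cells and 0.51 ± 0.10 in WT cells, while the SR kinase Srpk2 fell by 0.60 in KO cells (SE 0.15) and had -0.43 ± 0.15 in WT cells, which was not called. The Prp19 complex and catalytic step genes hardly moved as a list (1 rose and 2 fell of 20 in KO cells, 1 rose and 1 fell in WT cells), although Prpf19 itself rose by 0.69 ± 0.16 in KO cells and 0.62 ± 0.16 in WT cells. The share of this list that rose was 5% in each genotype, below that of all genes. Of 9 minor spliceosome genes, 1 rose and 2 fell in KO cells and 1 rose and 3 fell in WT cells. The shares were 11.1% higher and 22.2% lower in KO cells, against 14.1% and 13.0% of all tested genes. In WT cells 11.1% were higher and 33.3% lower, against 10.7% and 9.06%. Zrsr1 fell by 0.77 in KO cells (SE 0.17) and by 0.65 in WT cells (SE 0.17). Of 23 other RNA-binding splicing regulators, 5 rose and 4 fell in KO cells and 4 rose and 1 fell in WT cells. That is 21.7% higher and 17.4% lower in KO cells, and 17.4% higher and 4.35% lower in WT cells, beside the same shares of all genes. Syncrip, an hnRNP of the R and Q family, rose by 0.94 ± 0.20 in KO cells and 1.01 ± 0.20 in WT cells, and Celf2 fell by 0.61 in KO cells (SE 0.15) and by 0.55 in WT cells (SE 0.15). None of the 127 genes was called between KO and WT cells at either time.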

How the data were processed

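The 12 libraries are poly(A) mRNA from sorted splenic follicular B cells, 3 for each of KO and WT cells at 2 h and 0 h of anti-IgM. The authors deposited raw counts per gene, 24046 rows, 1 table per library. Reads were aligned with STAR to mm10, per the submitters' processing notes. The counting tool and its strand setting were not stated in the sources used here. Genes were tested in edgeR 4.0.16 (R 4.3.3) with TMM scaling and 1 mean per group over all 12 libraries. The 12242 genes kept by filterByExpr were tested with the quasi-likelihood test, and p-values were adjusted over all of them. SE is the absolute log2 difference divided by the square root of F. Total counts of 5666013 to 14153396 and TMM factors of 0.522 to 1.2 give a floor, 3 counts, of 0.183 to 1.02 CPM, for counting error only. The code was tested on simulated counts. Libraries of a group differed beyond counting noise (chi-square per degree of freedom 13.1 to 227), so none was a duplicate.

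The labels give the replicate number as a batch, and both times of 1 number and genotype come from 1 animal, so the numbers pair the libraries. Deviations from the group means correlated at -0.40 to 0.86 over 18 same-numbered pairs and at -0.76 to 0.62 over 36 other pairs. Fits with a replicate block (batch, or animal) were alternatives, as were DESeq2 1.42.0, RLE size factors, other filters, the Rn45s row left out, only the groups compared, and each library left out. With 3 animals a group, p-values of the reported fit measure the spread between libraries of a group, pooled over the 4 groups. That fit holds no animal or batch term and so does not use the pairing of the 2 times. The members were chosen by symbol and the other lists by function, both with earlier results of these data known. Values per library are given for the 6 members of a group with the smallest p in 2 h against 0 h and the 4 with the smallest p in KO against WT, and of other lists for up to 4 called genes. Genes such as Hnrnpul2, Hnrnph3, Srsf3 and Hnrnpll, and the leave-out of both 2 h libraries of batch 1, were taken up after seeing the data. Coordinates, transcript lengths, pseudogenes and overlaps come from GENCODE M21, and promoters from RefSeq.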

Additional observations from a re-analysis of the deposited data

Results flagged for a closer look

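Srsf3, which encodes the smallest SR protein, had differences of opposite sign in the 2 genotypes in every batch. It had 302, 217 and 229 CPM in KO cells at 2 h, against 234, 212 and 220 CPM at 0 h. Srsf3 had 194, 195 and 190 CPM in WT cells at 2 h, against 219, 203 and 206 CPM at 0 h. The log2 differences of the 3 batches were 0.37, 0.03 and 0.06 in KO cells and -0.18, -0.06 and -0.12 in WT cells, and at 2 h every KO library lay above every WT library. The change with time was called in neither genotype, and in KO cells it was small in batches 2 and 3. The fitted difference of responses was 0.28 ± 0.18 and was not called (edgeR, unadjusted p = 0.149, adjusted p = 0.9999). GENCODE lists 4 pseudogene copies of Srsf3. The largest KO value comes from KO 2 h replicate 1, the library with 52.3% Rn45s counts, and the part of that library in the result was not tested.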

How the results depend on the processing

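No value that was called, in the fit reported or in an alternative, changed sign. Of 5600 values of single genes across the alternatives, 5377 stayed on their side of the threshold, 119 passed it and 104 no longer did; 212, none of them called, changed sign, 13 of these in KO cells and 9 in WT cells for 2 h against 0 h. For 2 h against 0 h the median of the SF3 genes in KO cells changed sign in 1 fit, and several group medians between KO and WT cells did too, though not that of the snRNP genes at 2 h. The calls of Srsf2, Hnrnpab, Snrpa, Snrpa1, Snrpd1 and Snrpd3 held in all 23 alternatives in both genotypes, and those of Hnrnpf, Snrpb and Snrpf in KO cells.

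In KO cells, 2 h against 0 h, the members called lower were 0 with no filter on low counts, 0 with only the groups compared, 1 with the animal as a replicate block and 0 to 2 without single libraries. With only the groups compared, 1735 genes were called in KO cells, 9 members were called higher there, and 20 members were called higher in WT cells. That choice called 14.7% of all tested genes in KO cells and 28.6% in WT cells. In WT cells the members called higher were 20 with DESeq2, 22 without both 2 h libraries of batch 1, 27 with this and the batch as a replicate block, and 20 with DESeq2 and that block. Calls over all tested genes in WT cells rose in these fits too. They were 3058, 3607, 5205 and 3515, in the same order, against 2419 in the reported fit. Members called lower in WT cells were 1 with the batch as a replicate block (Hnrnph3), 3 without both 2 h libraries of batch 1, 3 with both choices, and 1 with DESeq2 and the block. Without both 2 h libraries of batch 1 and with the block, 5514 genes were called in KO cells and 5205 in WT cells. Between KO and WT cells at 0 h, 1 gene was called with DESeq2, 4 with DESeq2 and the block and 5 with the block without those libraries; at 2 h these counts were 2, 19 and 2, and none was a member. With edgeR over all libraries the batch block called no gene between KO and WT cells, and the 2 blocks changed no other call than those given above.

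Leaving out single libraries gave 7 to 21 members called higher and 0 to 1 called lower in WT cells, and 1278 to 3617 genes called, against 2419. It fell by more than 1.5 times when WT 2 h replicate 2 (1278) or 3 (1540), or WT 0 h replicate 1 (1499) or 3 (1476), was left out. In KO cells the members called higher were 15 to 27, and the genes called 2251 to 3849, against 3316. The fit of only the groups compared could not be made for the difference of responses, nor the animal block for KO against WT. The cause of these shifts was not tested. Srsf12 and Snrpn had 0 to 7 counts in a library, near the floor of 3 counts.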
